A study of Mus musculus with 12 samples.

Results

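Transcripts of 9 regulators of helper T cell lineages other than the follicular one were examined in follicular helper T (Tfh) cells in which 1 copy of *Bcl6* could be deleted. They were taken by symbol from the 24561 genes of the count table, and they are the T-box factors *Tbx21* (T-bet) and *Eomes*, the zinc finger factor *Gata3*, the nuclear receptor *Rora*, the forkhead factor *Foxp3*, the RUNX factors *Runx1*, *Runx2* and *Runx3*, and *Zbtb7b* (ThPOK). OT-II T cells, whose transgenic receptor recognizes an ovalbumin peptide, carried *Cd4-cre* in both groups and in addition the allele *Bcl6* fl/+ in the group labelled HET, called BCL6-insufficient, but not in the group labelled WT, called wild-type. They were transferred into SAP-deficient recipients, whose own T cells cannot form lasting contacts with B cells, and the recipients were immunized with NP-OVA, a haptenated ovalbumin, together with LPS in alum. On day 3 CXCR5hi PD-1hi OT-II cells (strain C57BL/6) were sorted from draining lymph nodes, and about 200 cells were used for each library. There were 3 recipient mice per group and 2 technical repeats per mouse, or 12 libraries in all.

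Naive CD4+ T cells take one of several fates after activation, and each fate is tied to a factor that switches on its own program and holds the others down. T-bet drives the Th1 fate and interferon-gamma, GATA3 the Th2 fate and interleukin-4, FOXP3 the regulatory (Treg) fate, and BCL6, a transcriptional repressor, the Tfh fate, while RORA contributes to the Th17 fate. RUNX factors bind DNA together with CBFb and work beside several of these, while ThPOK and RUNX3 oppose each other when thymocytes choose between the CD4 helper and the CD8 cytotoxic lineage. Several of these regulators are held to be repressed by BCL6, and the study labelled its groups by the *Bcl6* genotype of the transferred cells.

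*Cd4-cre* acts in T cells from the stage at which CD4 first appears, so that deletion can precede activation. The number of donor mice behind this transfer is not given in the sources used here, and for splenocyte transfers the study's methods describe a donor that was typically shared by 3 recipients, so donor and genotype may coincide here. The p-values below measure the spread between recipient mice. Total counts per mouse were 10098419 to 14002507 in the group labelled HET and 10609158 to 12967826 in the group labelled WT, and a single library held 3343375 to 8315722 counts. The repeats of a mouse differed more than counting noise, with a chi-square per gene of 6.42 to 16.1, and were summed. All 14 markers of CD4 T cells and Tfh cells were expressed highly enough to be tested, and of these *Trac* and *Icos* rose and *Pdcd1*, *Cxcr5*, *Tcf7* and *Cd4* fell, or 6 of 14 where 18.0% of all genes tested were called.

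The targeted gene went against the labels. *Bcl6* had 150.0, 146 and 150.0 normalized CPM (read counts scaled to a common library size) in the mice labelled HET and 54.8, 75.6 and 56.9 in those labelled WT, a log2 fold change of 1.25 (SE 0.12, adjusted p = 6.298e-07). The table holds a single count per gene, so exons were not read apart, and whether the labels of the groups are correct was not tested. Groups are therefore named by their labels, and every direction below rests on them.

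Adjusted p-values below are those of the edgeR quasi-likelihood test with the mouse as replicate, Benjamini-Hochberg adjusted over the 12719 genes left by its expression filter, and a gene is said to rise or fall where that value is under 0.05. A log2 fold change is positive where the group labelled HET was higher. All 9 regulators were in the table and 8 passed the filter, *Eomes* being the exception. Of these 8, *Runx2* and *Runx3* rose, none fell and 6 did not pass the test. Among all genes tested 18.0% passed, 9.17% upward and 8.82% downward, so that 2 called of 8 (25.0%) lies near the background. The mice of the labelled groups did not overlap for 4 of the 8, against 34.4% of all genes tested. The median log2 fold change was 0.18 over the 8 regulators and 0.01 over all genes. In bulk samples a smaller number of expressing cells and less RNA per cell cannot be told apart.

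**Figure D1:**
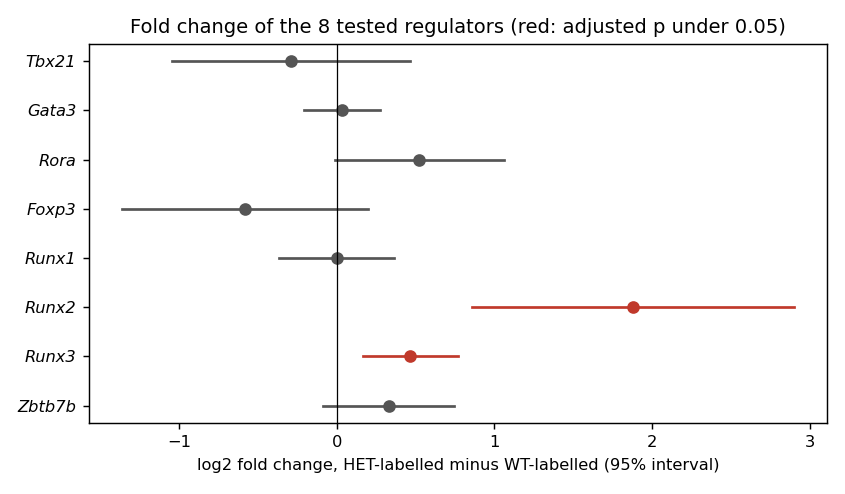
Log2 fold change of each tested regulator (horizontal axis, HET-labelled minus WT-labelled, 3 mice each) with its 95% interval, in red where the adjusted p is under 0.05. The intervals of *Runx2* (0.86 to 2.90) and *Runx3* (0.17 to 0.77) lie above 0, and the other 6 include 0.

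Both regulators that rose are RUNX genes, and RUNX promoters differ in whether they carry the letters that RUNX proteins are known to bind. The motif TGTGGT was searched on both strands in the 250 bases before each transcription start that RefSeq lists (GRCm38.p6), and it was in 14.1% of 32851 promoters. Of the 13 promoters of the 9 regulators, 3 held it: the one of *Runx2*, the distal one of *Runx3* and the second one of *Zbtb7b*. The distal promoter of *Runx3* held it at 2 places, whose first bases lie at -134 and -126 counted from the start, and is shown whole because it carries the pair. For *Runx2* and *Zbtb7b* 30 bases around the match are shown. Capitals mark the motif, as TGTGGT or as its reverse complement ACCACA.

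Runx3 distal promoter, chr4:135120395-135120644, plus strand: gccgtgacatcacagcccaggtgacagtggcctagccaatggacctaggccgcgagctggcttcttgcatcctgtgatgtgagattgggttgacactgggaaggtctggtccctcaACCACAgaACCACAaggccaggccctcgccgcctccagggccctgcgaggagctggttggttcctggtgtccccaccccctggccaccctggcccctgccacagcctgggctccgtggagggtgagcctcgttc
Runx2, chr17:44814690-44814719, minus strand, inside an exon of a longer annotated transcript: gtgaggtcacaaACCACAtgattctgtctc
Zbtb7b second promoter, chr3:89387743-89387772, minus strand: ctggcgaggaacTGTGGTatgtgagtgggt

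No other promoter of the 9 genes held these letters in this window, the second promoter of *Runx3* and both promoters of *Runx1* included. TTCCNNGAA, the core of the BCL6 motif, was in 4.06% of all promoters and in 1 of the 13, the second promoter of *Foxp3*. AGATAA, which the zinc fingers of GATA proteins recognize, was in 9.99% of all promoters and again in that *Foxp3* promoter only. The T-box motif AGGTGTGA (1.12% of all promoters) and the forkhead motif TGTTTAC (3.17%) were in none of the 13. These matches describe the letters in the window and not binding.

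*Runx2*, best known as the master regulator of bone-forming cells and expressed at low levels in T cells, showed the largest fold change of the 8 tested. It lies on chromosome 17 at 44495987 to 44814797 (GRCm38, minus strand). The mice labelled HET had 2.99, 6.30 and 4.94 CPM and those labelled WT had 0.92, 1.16 and 1.73 CPM. Every mouse labelled HET was above every mouse labelled WT. The means were 4.74 ± 1.66 and 1.27 ± 0.417 CPM (SD, n = 3 mice each), a 3.68-fold difference (log2 fold change 1.88, SE 0.49, 95% interval 0.86 to 2.90, adjusted p = 0.01003). Few reads stand behind this. A library had 10 to 51 counts of *Runx2* in the group labelled HET and 4 to 14 in the group labelled WT, or 161 against 46 in all. Of the 6 libraries labelled HET, 5 were above every library labelled WT.

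The call on *Runx2* was lost without the mouse 2 labelled HET, the highest of the 6 (log2 fold change 1.62, adjusted p = 0.0735), and held without any other mouse, with log2 fold changes of 1.69 to 2.17. With only the first technical repeat of each mouse the log2 fold change was 1.61 (adjusted p = 0.187), and with only the second it was 1.92 (adjusted p = 0.0559). The protein-coding gene *Supt3* overlaps *Runx2* on the opposite strand, shares 0 exon bases with it and had 703 counts over the 12 libraries. The antisense gene *Runx2os1* shares 519 exon bases with *Runx2* and had 40 counts over the 12 libraries. SMART-Seq2 does not mark strand, so reads over shared bases cannot be assigned to either gene.

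*Runx3* is needed for CD8 T cell and cytotoxic programs and for interferon-gamma in Th1 cells, where it works with T-bet. It lies on chromosome 4 at 135120652 to 135177990 (plus strand). It had 57.1, 50.7 and 46.5 CPM in the mice labelled HET and 36.0, 43.3 and 32.7 CPM in those labelled WT. The groups did not overlap, although the lowest mouse labelled HET and the highest labelled WT lay close together. The means were 51.4 ± 5.38 and 37.3 ± 5.44 CPM, a 1.38-fold difference (log2 fold change 0.47, SE 0.15, 95% interval 0.17 to 0.77, adjusted p = 0.02813). A library held 165 to 510 counts. The single libraries did overlap, with 3 of 6 labelled HET above all 6 labelled WT.

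Leaving out a mouse ended the call on *Runx3* in 4 of 6 cases. The adjusted p was 0.135 without mouse 1 labelled HET, 0.0651 without mouse 2 labelled HET, 0.0934 without mouse 1 labelled WT and 0.146 without mouse 3 labelled WT, and the log2 fold change stayed between 0.37 and 0.58. The first repeats alone gave 0.62 (adjusted p = 0.0474) and the second repeats alone 0.39 (adjusted p = 0.2196).

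**Figure D2:**
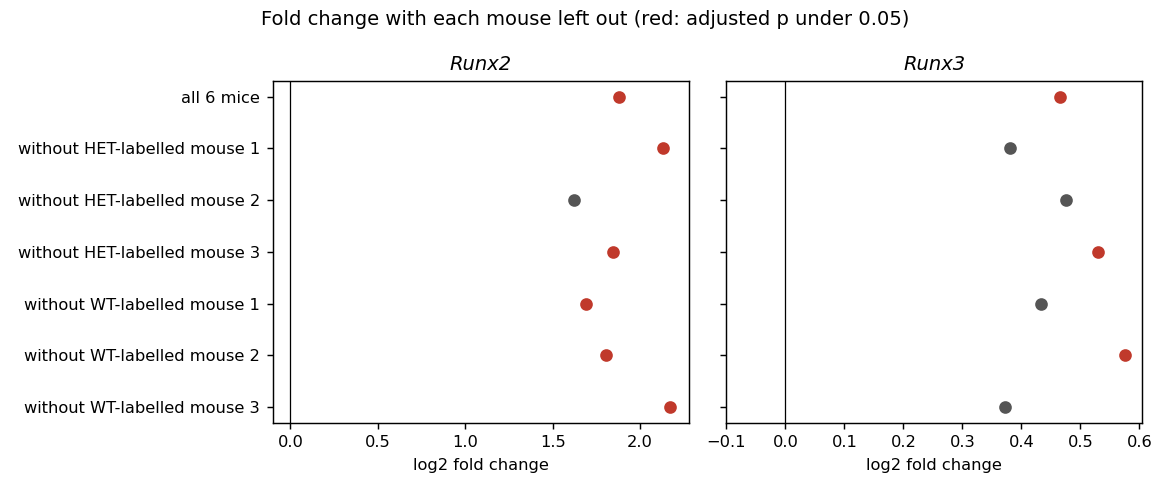
Log2 fold change (horizontal axis, HET-labelled minus WT-labelled) of *Runx2* and *Runx3* with all 6 mice and with each mouse left out, in red where the adjusted p is under 0.05. All values are above 0, and the call holds in 5 of 6 cases for *Runx2* and in 2 of 6 for *Runx3*.

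*Runx1*, which acts in early T cell development and in naive T cells and partners with FOXP3 in Treg cells, had 40.3, 27.5 and 28.6 CPM in the mice labelled HET. Those labelled WT had 35.3, 35.0 and 26.5 CPM. The groups covered each other, with means of 32.1 ± 7.06 and 32.3 ± 4.99 CPM (log2 fold change -0.0006, 95% interval -0.37 to 0.37, adjusted p = 0.999). The interval leaves room for a change of up to 0.37 in either direction. *Runx1* lies on chromosome 16 at 92601466 to 92826149 (minus strand) and shares 106 exon bases with the antisense gene *Gm26626* (176 counts).

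The RUNX factors share the partner *Cbfb*, which had 76.4 ± 9.05 CPM in the group labelled HET and 70.2 ± 5.62 CPM in the group labelled WT (log2 fold change 0.12, SE 0.12, adjusted p = 0.554). Divided by exon length, the 3 RUNX transcripts summed to 13.5 ± 1.48 CPM per kb in the group labelled HET and 10.3 ± 1.39 in the group labelled WT. *Runx3* was the main species in every mouse. Its share of that sum was 75.6%, 77.2% and 76.0% in the mice labelled HET and 70.3%, 74.0% and 73.1% in those labelled WT. The share of *Runx1* was 17.4% to 22.2% in the group labelled HET and 24.7% to 28.7% in the group labelled WT. *Runx2* made up 2.24% to 5.42% in the group labelled HET and 1.01% to 2.19% in the group labelled WT. On this scale no share overlapped between the groups, narrowly so for *Runx2*. As shares of the deposited TPM, a scale chosen after the data were seen, *Runx2* made up 0.386% to 0.929% against 0.187% to 0.415% and overlapped, *Runx1* 8.63% to 11.5% against 12.7% to 15.1%, and *Runx3* 88.2% to 90.4% against 84.7% to 86.9%. Shares of 1 sum move together, and they were not tested.

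**Figure D3:**
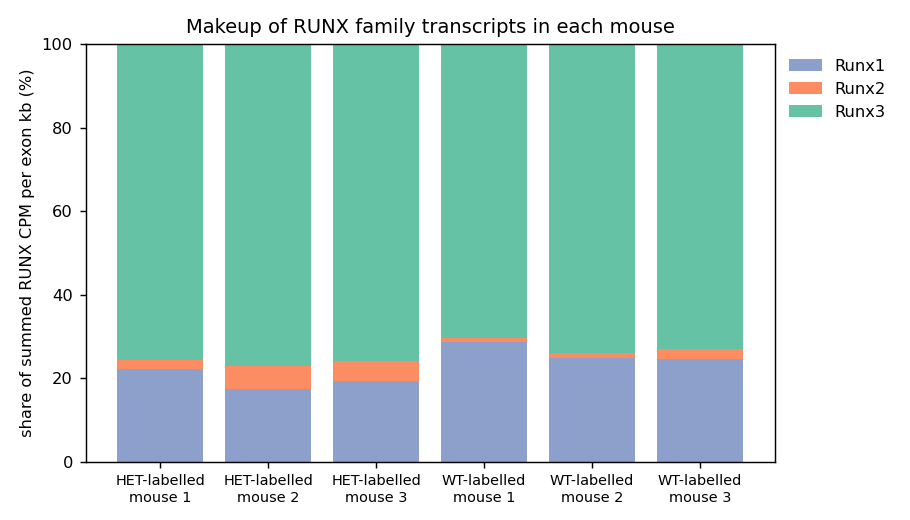
Share of *Runx1*, *Runx2* and *Runx3* in the summed normalized CPM per exon kb of the RUNX family (vertical axis, percent), 1 bar per mouse. *Runx3* makes up between 70.3% and 77.2% of the sum in all 6 mice.

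Within a mouse the log2 ratio of *Runx3* to *Runx1* was 0.51, 0.88 and 0.70 in the group labelled HET and 0.03, 0.31 and 0.30 in the group labelled WT. The groups did not overlap, and their means differed by 0.48. The two-sided exact permutation test over 6 mice gave p = 0.1, the smallest that 3 against 3 allow, and 0.167 after adjustment over the 5 ratios computed. The ratio of *Runx3* to *Zbtb7b*, the antagonist of *Runx3* in lineage choice, differed by 0.15 (exact permutation p = 0.6, adjusted 0.6) and overlapped.

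*Zbtb7b* encodes ThPOK, which keeps helper T cells from the CD8 lineage. It lies on chromosome 3 at 89377644 to 89394776 (minus strand). It had 33.9, 27.9 and 20.6 CPM in the mice labelled HET and 26.8, 18.1 and 20.7 CPM in those labelled WT. The groups overlapped. The means were 27.4 ± 6.66 and 21.9 ± 4.47 CPM (log2 fold change 0.33, SE 0.20, 95% interval -0.08 to 0.75, adjusted p = 0.278). The log2 fold change was 0.06 in the first repeats and 0.54 in the second, and 0.15 to 0.49 with a mouse left out, lowest without mouse 1 labelled HET. It shares 116 exon bases with *Gm15417*, an antisense gene with 168 counts.

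*Tbx21*, the Th1 regulator, showed the largest difference between the repeats of a single mouse. It lies on chromosome 11 at 97098071 to 97115331 (minus strand). The mice labelled HET had 5.17, 8.57 and 3.19 CPM and those labelled WT had 6.96, 4.53 and 9.24 CPM. The groups overlapped over most of their range, with means of 5.64 ± 2.72 and 6.91 ± 2.35 CPM (log2 fold change -0.29, SE 0.37, 95% interval -1.05 to 0.47, adjusted p = 0.641). In mouse 1 labelled HET, the repeats held 6 and 65 counts, a 7.47-fold difference in CPM. In the other 5 mice and in all other regulators the repeats of a mouse differed by at most 2.11-fold. The log2 fold change was -0.79 in the first repeats and 0.03 in the second, so the direction of *Tbx21* depended on the repeat. With a mouse left out it was -0.72 (without mouse 2 labelled HET) to -0.02 (without mouse 3 labelled HET).

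*Eomes*, the related T-box factor of CD8 and cytotoxic CD4 T cells (chromosome 9, 118478212 to 118486132, plus strand), had 0 counts in all 12 libraries. A count of 0 in 70478161 reads allows up to 0.0426 CPM over all libraries, and up to 0.361 CPM in the deepest library and 0.897 CPM in the shallowest, taking 3 counts as the limit. These limits cover counting error only. *Eomes* was not tested.

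*Gata3*, the Th2 regulator, which all CD4 T cells also need, was the most abundant of the 9. It lies on chromosome 2 at 9857078 to 9890034 (minus strand). It had 92.3, 104 and 83.1 CPM in the mice labelled HET and 98.4, 81.2 and 93.4 CPM in those labelled WT. The groups covered each other, with means of 93.0 ± 10.3 and 91.0 ± 8.86 CPM (log2 fold change 0.03, SE 0.12, 95% interval -0.21 to 0.28, adjusted p = 0.885). With 271 to 820 counts per library its interval was the narrowest of the 8. The antisense gene *Gm13256* shares 155 exon bases with it and had 678 counts, against 6493 of *Gata3*.

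*Rora*, which contributes to the Th17 fate and is needed for type 2 innate lymphoid cells, lies on chromosome 9 at 68653786 to 69388246 (plus strand). It had 10.7, 14.8 and 10.5 CPM in the mice labelled HET and 6.59, 8.53 and 9.84 CPM in those labelled WT. The groups did not overlap, but the call was not reached. The means were 11.99 ± 2.42 and 8.32 ± 1.63 CPM (log2 fold change 0.52, SE 0.26, 95% interval -0.01 to 1.06, adjusted p = 0.174). With trends in GC content and length removed the log2 fold change was 0.24 (adjusted p = 0.596). It was 0.84 in the first repeats and 0.25 in the second, and 0.34 without mouse 2 labelled HET. Of the libraries labelled HET, 4 of 6 were above every library labelled WT. It shares 82 exon bases with *Gm15511*, an antisense gene with 88 counts. The markers of type 2 innate lymphoid cells summed to at most 0.916 CPM in any mouse.

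*Foxp3*, the Treg regulator (chromosome X, 7573644 to 7595245, plus strand), had 4.08, 2.36 and 4.32 CPM in the mice labelled HET and 5.77, 5.78 and 4.58 CPM in those labelled WT. Here the mice labelled HET were below all those labelled WT. The means were 3.59 ± 1.07 and 5.38 ± 0.689 CPM (log2 fold change -0.58, SE 0.38, 95% interval -1.36 to 0.20, adjusted p = 0.314), which did not pass the test. Without mouse 2 labelled HET, the lowest of the 6, the log2 fold change was -0.36 (adjusted p = 0.606). A library held 11 to 45 counts. *Foxp3* shares exon bases with 4 other genes, among them *Flicr* (853 bases, 10 counts) and *Ccdc22* (590 bases, 69 counts).

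**Figure D4:**
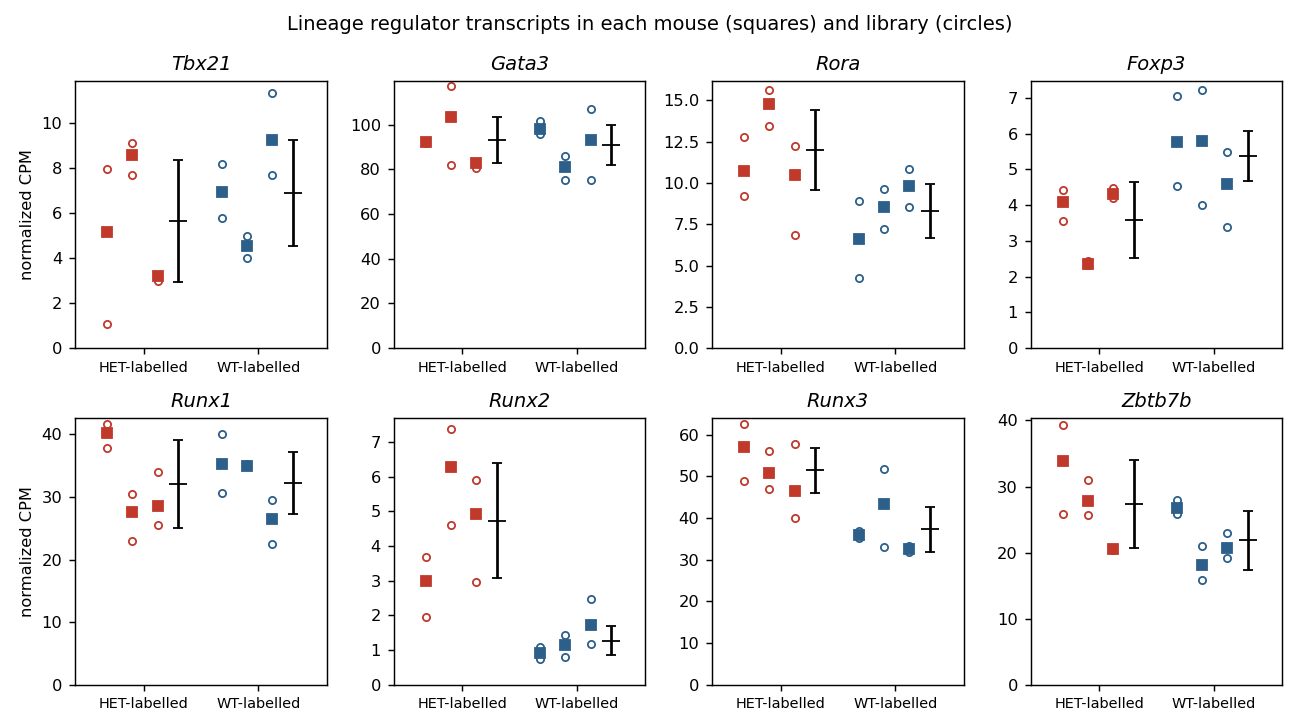
Normalized CPM (vertical axis, linear and from 0) of the 8 detected regulators in each mouse (squares, technical repeats summed) and library (circles), with the mean and SD over 3 mice in black. *Runx2*, *Runx3* and *Rora* are higher in all 3 HET-labelled mice and *Foxp3* is lower in all 3; *Eomes*, with 0 counts, is left out.

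Levels can be compared between genes only per length. As normalized CPM per kb of exon, averaged over the 6 mice, the order was *Gata3* (23.1 ± 2.18, SD), *Runx3* (8.87 ± 1.82), *Zbtb7b* (4.41 ± 1.06), *Runx1* (2.68 ± 0.455), *Tbx21* (2.52 ± 0.956), *Foxp3* (0.979 ± 0.277), *Rora* (0.777 ± 0.209), *Runx2* (0.340 ± 0.248) and *Eomes* at 0. *Gata3* was 2.61 times *Runx3* and above it in all 6 mice. *Runx1* and *Tbx21* were not separated, with *Runx1* higher in 4 of 6 mice, and *Foxp3* was above *Rora* in 5 of 6. Each other gene was above the next in all 6 mice, but the ranges over mice overlapped for *Zbtb7b* and *Runx1* and for *Rora* and *Runx2*.

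Set among the 12614 tested genes with a known exon length, *Gata3* was above 83.3% of them, *Runx3* above 65.6% and *Zbtb7b* above 49.1%. *Runx1* was above 36.5%, *Tbx21* above 35.2%, *Foxp3* above 16.6%, *Rora* above 13.2% and *Runx2* above 4.67%. So *Runx2*, with the largest fold change of the 8, was also the lowest in level. The length-scaled TPM values that the authors deposited put the 9 genes in the same order. They were lower than TPM computed from exon length for all 8 detected genes, from 1.52-fold for *Zbtb7b* to 14.6-fold for *Runx2* and 15.5-fold for *Rora*. *Rora* and *Runx2* also have the longest gene spans relative to exon length (56.2 and 36.1 times), and *Zbtb7b* has the shortest of the 8 (3.06 times). *Tbx21* (5.24-fold, span 6.94 times exon) was further off than *Runx3* (2.24-fold, span 11.5 times). The cause of the lower deposited values was not tested.

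**Figure D5:**
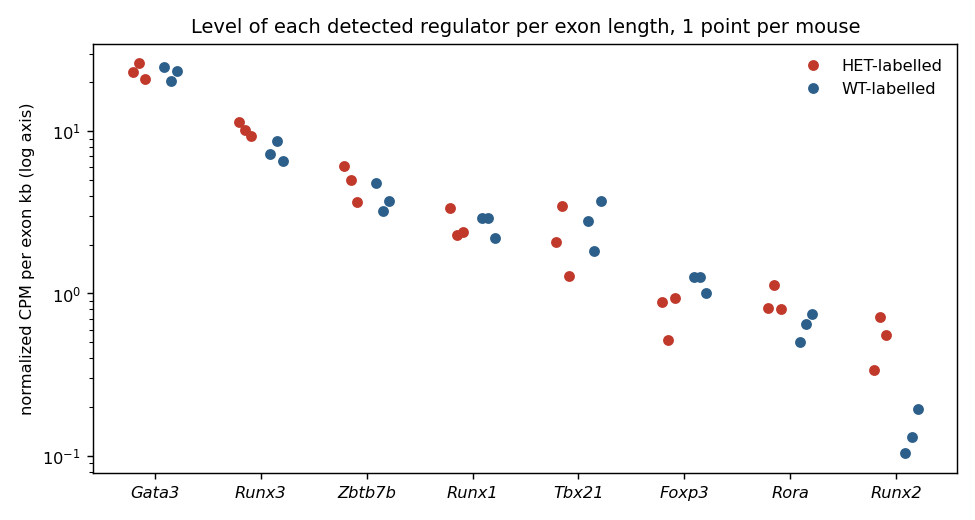
Normalized CPM per exon kb (vertical axis, log scale) of the 8 detected regulators, ordered by their mean, 1 point per mouse in each labelled group. *Gata3* is highest in every mouse with a mean of 23.1. *Runx2* has the lowest mean (0.340), although not the lowest value in every mouse.

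Tfh identity depends on BCL6 relative to the other regulators, so ratios to *Bcl6* were taken in each mouse. The log2 ratio of *Tbx21* to *Bcl6* was -4.86, -4.09 and -5.56 in the group labelled HET and -2.98, -4.06 and -2.62 in the group labelled WT, a difference of -1.62. That of *Gata3* to *Bcl6* was -0.70, -0.50 and -0.85 against 0.84, 0.10 and 0.71, a difference of -1.24. Neither ratio overlapped between the groups, and each exact permutation test gave p = 0.1, adjusted 0.167. The ratio of *Tbx21* to *Gata3* differed by -0.38 (exact permutation p = 0.5, adjusted 0.6) and overlapped. In the first repeats alone the difference was -2.55 for *Tbx21* to *Bcl6* (exact permutation p = 0.2) and -1.43 for *Tbx21* to *Gata3*, and the latter was -0.10 without mouse 3 labelled HET. The differences in the ratios to *Bcl6* contain the difference in *Bcl6* itself.

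Cofactors and downstream programs of the regulators were read from lists of known genes. Of 114 distinct genes in 5 program lists, 104 were in the table and 61 were tested. Among these, 12 rose and 6 fell, or 29.5% called against 18.0% of all genes, and their median log2 fold change was 0.08. No set test was made.

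The Th1 list had 13 of 24 genes tested. *Bhlhe40*, a regulator of cytokine production, rose (9.57 ± 1.94 against 5.19 ± 1.29 CPM, log2 fold change 0.88, adjusted p = 0.0455), and none fell. In 10 of 19 alternative analyses no gene of this list was called higher. *Ifng*, the signature cytokine of Th1 cells, had at most 6 counts in a library and 10 in all, and was not tested. The chemokine receptor *Cxcr3*, a target of T-bet, had 66.4 ± 19.5 and 58.4 ± 13.3 CPM (adjusted p = 0.533). The median log2 fold change of the list was 0.18.

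The Th2 list had 12 of 22 genes tested, of which 4 rose and none fell, with a median of 0.13. *Maf*, which activates *Il4* and is also a Tfh factor, had a log2 fold change of 0.74 (adjusted p = 0.001153), *Irf4*, needed by several helper fates, 0.70 (adjusted p = 0.009467), *Il4* 0.48 (adjusted p = 0.0353) and *Rad50*, whose gene holds the control region of the Th2 cytokine locus, 0.35 (adjusted p = 0.0459). *Il4*, which Tfh cells also make, had 65.6 ± 10.4 against 47.1 ± 11.8 CPM. *Il13* had 0 counts in all libraries. The number of genes of this list called higher ranged from 0 to 4 over the alternative analyses and moved by over 1.5 times in 10 of 19.

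The Th17 list had 11 of 21 genes tested, of which 1 rose and 3 fell, with a median of -0.05. *Nfkbiz*, an inducible NF-kB cofactor, rose by 0.67 on the log2 scale (adjusted p = 0.003276). *Ikzf3* (Aiolos) fell by 0.72, *Hif1a*, the hypoxia factor, by 0.56 and *Il6ra*, the interleukin-6 receptor, by 0.38 (adjusted p = 0.001251, 0.000612 and 0.0173). *Il17a*, the signature cytokine of Th17 cells, was not analysed here.

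The Treg list had 17 of 23 genes tested, of which 4 rose and 2 fell, with a median of 0.24. *Nt5e* (CD73) had a log2 fold change of 1.17, *Tnfrsf4* (OX40) 0.81, *Ikzf2* (Helios) 0.62 and *Nrp1* 0.52, with adjusted p = 0.003721, 0.0174, 0.002042 and 0.002766. *Lag3* fell by 0.84 and *Tigit* by 0.55, both inhibitory receptors (adjusted p = 0.006003 and 0.000381). *Il2ra* (CD25) had 5.09 ± 3.301 and 2.41 ± 2.22 CPM (adjusted p = 0.283). Activated and follicular T cells also express these genes, and *Foxp3* itself lay lower in the mice labelled HET without passing the test.

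The cytotoxic list had 8 of 26 genes tested, of which 2 rose and 1 fell, with a median of 0.01. *Nkg7*, a granule protein, had 5.42 ± 3.64 against 1.83 ± 1.23 CPM (log2 fold change 1.54, adjusted p = 0.0494), and its groups overlapped. *Id2*, an inhibitor of E proteins, had a log2 fold change of 0.82 (adjusted p = 0.0145), and *Lamp1*, a lysosomal membrane protein, fell by 0.83 (adjusted p = 0.000173). The effector molecules *Gzmb* and *Prf1* had 1 and 12 counts over all libraries. The count of 2 risen genes held in 4 of 19 alternative analyses and was 0 or 1 in the other 15, DESeq2 among them.

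Among 25 partners and cofactors, 17 were tested, 3 rose and 4 fell, against 18.0% of all genes called in either direction, with a median of 0.02. Besides *Bcl6*, the chromatin remodeller *Chd4* (0.44, adjusted p = 0.003765) and *Zfpm1* (FOG1), which binds GATA factors (0.52, adjusted p = 0.0301), rose. *Ets1*, which binds DNA beside RUNX proteins, fell by 0.65 (adjusted p = 8.215e-05), *Patz1* by 0.54 (adjusted p = 0.0314), the NuRD subunit *Mta2* by 0.52 (adjusted p = 0.000480) and *Zbtb7a*, a relative of ThPOK, by 0.49 (adjusted p = 0.0278).

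Markers of other cells were read beside *Runx2* and *Runx3*, which many blood cells express. The myeloid list (9 of 12 genes in the table, *Cd14* at 0, 4 tested) summed to 108 to 115 CPM in the mice labelled HET and 84.0 to 89.7 CPM in those labelled WT. Most of that was *Cst3*, which had 88.4 and 76.8 CPM and did not pass the test, and *Lyz2*, a lysozyme of myeloid cells, rose from 1.24 ± 1.02 to 7.77 ± 7.52 CPM (log2 fold change 2.64, adjusted p = 0.005315). *Csf1r* had 9.09 ± 0.699 and 5.33 ± 0.479 CPM and did not overlap (adjusted p = 0.0676), while *Cd68* had 2.15 and 2.46 CPM and overlapped. Genes too low to test had 61 against 11 counts in all (*Tyrobp*), 48 against 11 (*Itgam*), 25 against 1 (*Fcer1g*) and 19 against 0 (*Csf3r*). Much of this lay in single libraries. The highest library labelled HET held 39, 25, 16 and 19 of these counts, and each gene had a library labelled HET at 0. For *Lyz2* the highest library held 160 of the 299 counts of the group labelled HET. The part of myeloid RNA in the values of *Runx2* and *Runx3* was not tested. None of the 8 tested genes of the B cell list passed, and its sum, mostly *Ighm*, was 520 to 733 CPM in the group labelled HET and 613 to 866 in the group labelled WT. The CD8 T cell and NK list summed to 22.6 to 32.9 and 26.5 to 39.8 CPM, mostly *Cd8b1*, with *Cd8a* at 2 counts in all and *Klre1*, *Eomes* and *Xcl1* at 0.

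Genes whose log2 CPM followed that of a regulator most closely over the 12 libraries were also read out, as a description. The libraries include pairs of repeats and both labelled groups, so these correlations contain the difference between the groups. For *Runx2* they were *Cetn3* (Pearson's r 0.95), *Zfas1* (0.93) and *Gm15793* (0.92), and for *Runx3* they were *Sptan1* (0.94), *Bptf* (0.93) and *Zfp91-1* (0.93), all 6 of which rose. For *Tbx21* the closest was *Med16* (0.93), for *Gata3* *Ttc19* (0.90), for *Rora* *Arhgef40* (0.93), for *Foxp3* *Gm49980* (0.88), for *Runx1* *Pstk* (0.96) and for *Zbtb7b* *E430024I08Rik* (0.93), none of which passed the test. Between regulators, *Rora* and *Runx2* had r = 0.67, *Runx2* and *Runx3* 0.54, and *Foxp3* and *Runx2* -0.68 over the 12 libraries.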

How the data were processed

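The authors adapted SMART-Seq2 to about 200 cells, aligned reads with HISAT2 2.2.1 (per the submitters' processing notes) to mm10 (GRCm38), counted them by gene with HTSeq, and deposited these raw counts and TPM values derived from them. The strand setting and annotation release of the counting are not given in the sources used here. The deposited TPM were used only as an alternative and for the order of levels. Repeats were summed per mouse. The 6 mice entered edgeR 4.0.16 (R 4.3.3) for TMM scaling, filterByExpr and the quasi-likelihood test, with Benjamini-Hochberg adjusted p under 0.05 as the call. SE was taken from the fold change and the F statistic. Normalized CPM used TMM library sizes. Levels used exon lengths and positions from GENCODE M21 (GRCm38), in which 520 of 24561 symbols were not found. Ratios were compared by exact permutation over mice. Correlations used log2 CPM with a prior count of 2. The fitting steps were tested on simulated data.

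Alternatives were DESeq2 1.42.0, other scalings and filters, each repeat alone, limma 3.58.1 on log2(TPM + 1) and log2(TPM + 0.1), a block for the mouse number, offsets for GC content and length (mgcv 1.9.3, 99.1% of tested genes) and leaving out each mouse. The regulators and gene lists were chosen with earlier results of these data known. Named were all 9 regulators, *Bcl6*, *Cbfb*, the called genes of each list (the 4 of smallest p in each direction), the signature products of each lineage (1 gene is not reported here) and the 3 genes most like each regulator. In addition, markers of cell types and genes that overlap a regulator were named after their values were seen. Reads carry no molecular identifiers, so limits from counts cover counting error only. No per-sample column was left unmapped.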

Additional observations from a re-analysis of the deposited data

Results flagged for a closer look

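Each of the 8 detected regulators was examined in the 6 libraries of each labelled group, 16 groups in all, for a single library far from the other 5. There were 2 such libraries, and chance gives about 1 in 20 groups where the values are independent, which libraries that are repeats of 3 mice are not. *Gata3* had 117.5 CPM in repeat 1 of mouse 2 labelled HET, against 80.7 to 92.5 CPM in the other 5 libraries of that group. *Runx3* had 51.69 CPM in repeat 2 of mouse 2 labelled WT, against 32.0 to 36.8 CPM in the other 5. Without that whole mouse the log2 fold change of *Runx3* was 0.58 (edgeR adjusted p = 0.0225), and without the mouse 2 labelled HET that of *Gata3* was -0.05 (adjusted p = 0.843).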

How the results depend on the processing

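Low counts limit *Runx2*, *Foxp3* and *Tbx21*, and 3 mice per group limit every test. The count of regulators called higher was 2, and it was 1 with at least 10 counts in every library, where *Runx2* and *Tbx21* were not tested, 1 in repeat 1 alone, 0 in repeat 2 alone, 0 in all limma fits on TPM, and 0 to 2 with each mouse left out. No regulator was called lower in any of the 19 alternatives. *Runx2* was called in 12 of 18 and *Runx3* in 11 of 19, always with a positive fold change. On log2(TPM + 1), where a pseudocount of 1 is far above the TPM of *Runx2*, it was 0.07 (adjusted p = 0.321). With trends in GC content and length removed, *Runx3* was 0.58 (edgeR adjusted p = 0.00705) and *Zbtb7b* 0.49 (adjusted p = 0.0866). In that fit *Tbx21* was -0.09 (adjusted p = 0.906) and *Rora* 0.24 (adjusted p = 0.596). The genes called, 2288 with all mice, numbered 1059 in repeat 1, 1446 in repeat 2, 1305 on log2(TPM + 1), 1260 on log2(TPM + 0.1), 221 on log2(TPM + 1) over all genes, and 1424 to 1972 with each mouse left out (1424 without mouse 3 labelled WT). Of the calls 51.0% were upward, but 29.9% and 29.7% on the first and the second TPM scale, whose medians over all genes were -0.07 and -0.11. Called genes in a program list numbered 0 to 5 per direction over the alternatives, and the causes of these shifts were not tested. Values near 0 changed sign. *Runx1* was 0.033 with upper-quartile scaling, 0.0045 with at least 10 counts, 0.071 in repeat 1 and -0.20 to 0.10 with each mouse left out. *Gata3* was -0.16 in repeat 2, -0.094, -0.098 and -0.094 in the TPM fits, and -0.053 to 0.10 with each mouse left out. *Tbx21* was 0.034 in repeat 2. The log2 ratio of *Tbx21* to *Gata3* was 0.11 in repeat 2, and that of *Runx3* to *Zbtb7b* -0.13 in repeat 2 and -0.024 to 0.39 with each mouse left out. Deviations of same-numbered mice correlated by 0.09, -0.03 and 0.02, and those of differently numbered mice by -0.08 to 0.06. With 3 mice per group these values cannot settle whether the numbers pair the mice. With the replicate block 2579 genes and 2 regulators were called, the latter at 1.88 (*Runx2*) and 0.47 (*Runx3*), and the block changed no call on a regulator, while 0 genes of the Th1 list were called higher with it.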
